A study of Mus musculus with 2 samples.

Results

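The 10 genes described here set whether a damaged cell dies: the BH3-only genes *Pmaip1*, *Bbc3*, *Bcl2l11* and *Bid*, the effectors *Bax* and *Bak1*, the protective genes *Bcl2*, *Bcl2l1* and *Mcl1*, and the death receptor gene *Fas*. They were taken by name, 10 of the 32285 genes of the tables, and each was found under a single identifier. The list was chosen by name and selected on earlier values of the same germ cell sums, so the differences of its members between the libraries are a description and were not tested. The study prepared single cells from the testes of a control male and a *Brca1* vKO male at postnatal day 7 (PD7), 1 library per genotype, to ask what the loss of *Brca1* does to early spermatogonia. *Brca1* vKO mice carry a floxed and a deleted *Brca1* allele together with Vasa-Cre, a recombinase driven by the promoter of the germ cell gene Vasa (*Ddx4*), so that germ cells lose the remaining allele while somatic cells keep it. The alleles of the control male are not given in the sources used here. More cells were loaded for the vKO library. With 1 library a genotype, a difference between the mice, the preparations or the runs cannot be told apart from the genotype.

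Cells with intrinsic damage die when the outer mitochondrial membrane becomes permeable. BAX and BAK1 form the pores, BCL2, BCL-xL (the product of *Bcl2l1*) and MCL1 hold them in check, and the BH3-only proteins NOXA (*Pmaip1*), PUMA (*Bbc3*), BIM (*Bcl2l11*) and BID remove that check or activate the effectors directly. NOXA binds mainly MCL1, PUMA binds all the protective members, and *Pmaip1*, *Bbc3*, *Bax* and *Fas* are known transcriptional targets of p53. FAS, a receptor at the cell surface, starts the extrinsic route through caspase 8, which cleaves BID.

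PUMA is shown here by sequence because *Bbc3* had the largest ratio between the libraries among the members in Gfra1/Ret spermatogonia and in all germ-like cells. In the promoter windows of RefSeq (GRCm38.p6), which run from 250 bases before to 50 bases after each annotated start, a pair of adjacent p53 half-sites was searched on both strands. A half-site has 10 bases with the core CNNG, where the letters NN are A or T, and a pair of 20 bases was accepted with at most 3 mismatches outside the cores. Such a pair was found in 188 of 32851 windows, or 0.572%. Of the 9 members with windows, which have 14 windows in all, *Bbc3* was the 1 member that held a pair, in the window of a start inside the gene. *Pmaip1* had no window. The 160 bases around the *Bbc3* pair lie at chr7:16309416-16309575 on the plus strand, inside the *Bbc3* transcript and in no annotated exon, and the capitals mark the cores of both half-sites, the pair itself beginning 97 bases before that start.
Bbc3: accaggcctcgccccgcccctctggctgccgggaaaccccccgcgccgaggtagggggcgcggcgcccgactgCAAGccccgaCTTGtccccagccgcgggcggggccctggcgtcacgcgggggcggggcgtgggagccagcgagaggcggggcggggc
The match is a description of the letters. Whether p53 was bound there was not measured.

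The control library held 5812 cell barcodes and 120568700 unique molecular identifiers (UMIs, each a tagged RNA molecule), and the vKO library 9456 barcodes and 165062097 UMIs. After the filters 5077 and 8712 cells remained, with a median of 16917 and 12970.5 UMIs. The libraries shared 21 barcodes, 16 of them among retained cells. Levels are given as CPM, the UMIs of a gene scaled to a class total of 1000000, with no scaling by length because a UMI counts a molecule whatever its length. The intervals are exact 95% Poisson intervals for levels, exact conditional intervals for ratios and exact binomial (Clopper-Pearson) intervals for shares, and they cover counting error only, not the spread between animals.

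Cells were assigned to classes by clustering and markers. Germ-like cells, with all 8 germ markers detected, numbered 652 in control and 216 in vKO, or 12.8% and 2.48% of the library. They were split by *Gfra1* and *Ret*, the receptor genes of undifferentiated spermatogonia, against *Kit* and *Stra8*, genes of differentiating ones. This gave 349 and 190 Gfra1/Ret spermatogonia, 234 and 7 Kit/Stra8 spermatogonia, and 69 and 19 other germ-like cells. Of these other cells 33 and 14 held at least 2 UMIs of each pair, with neither pair reaching 2 times the other. The remaining 36 and 5 held too few of either. Of all germ-like cells 53 control and 7 vKO cells lay close to the limit. Sertoli-like cells numbered 2187 and 4308, stromal-like cells 944 and 2179, and peritubular myoid-like cells 553 and 1416. The median germ-like cell held 46298 UMIs in control and 37887 in vKO. Not among the germ-like cells is a cluster of 409 control and 58 vKO cells with germ markers and few UMIs, which was left unnamed.

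*Brca1* itself was measured at 68.8 CPM in control and 43.2 CPM in vKO Gfra1/Ret spermatogonia, a ratio of 0.628. The ratio was 0.862 in Sertoli-like, 0.551 in stromal-like and 0.740 in myoid-like cells, which keep a floxed allele. In Kit/Stra8 spermatogonia it was 0.976, with 7 vKO cells. The deletion removes internal exons, and which end of the transcript the tags mark is not given in the sources used here, so whether these levels check the deletion is not known.

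Among the BH3-only genes, *Bbc3* had the largest ratio and *Pmaip1* the next in Gfra1/Ret spermatogonia. *Bbc3* was counted at 27 UMIs in 349 control cells and 135 UMIs in 190 vKO cells. This is 1.60 CPM (1.05 to 2.33) against 17.4 CPM (14.6 to 20.6), a ratio of 10.9 (7.15 to 17.1). With a mitochondrial limit of 5% it stood at 6.89 (3.62 to 13.8), and at 3.67 (0.191 to 217) with cells thinned to 2000 UMIs. The control UMIs lay in 27 cells with 1 each, and the vKO UMIs in 82 cells with at most 7 in 1 cell, so the sum did not rest on a single cell. Once every cell was thinned to 10000 UMIs, 4 of 346 control cells (1.16%, 0.316 to 2.93) and 30 of 189 vKO cells (15.9%, 11.0 to 21.9) held a *Bbc3* UMI, against 7.74% and 43.2% before thinning.

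No class lacked *Bbc3*, so Sertoli-like cells, with 4.27% of control and 4.41% of vKO cells holding a *Bbc3* UMI at the same 10000 UMIs, are given for comparison. Their median depth was 17906 and 15004.5 UMIs, against 45655 and 37239.5 in Gfra1/Ret spermatogonia. The control Gfra1/Ret share lay below both, and the vKO share above both. Stromal-like cells stood at 11.2% and 7.95%. By CPM *Bbc3* in stromal-like cells was 10.5 and 8.85, in Sertoli-like cells 3.41 and 3.96, and in myoid-like cells 2.34 and 2.76. In control, stromal-like cells thus held the highest *Bbc3* level of the classes, and in vKO the Gfra1/Ret spermatogonia did, although the intervals of the smaller vKO germ classes (12.9 CPM from 4 UMIs in Kit/Stra8 spermatogonia, 13.7 CPM from 10 UMIs in the other germ-like cells) overlapped theirs.

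*Pmaip1* was a gene of Gfra1/Ret spermatogonia already in control. It was counted there at 710 UMIs, or 42.1 CPM (39.0 to 45.3), against 5.51 CPM (4.28 to 6.99) in control Kit/Stra8 spermatogonia, a ratio of Kit/Stra8 to Gfra1/Ret of 0.131 (0.101 to 0.168). Sertoli-like cells were lowest, at 0.148 CPM in control and 0.338 CPM in vKO from 8 and 34 UMIs. Their vKO over control ratio was 2.28 (1.04 to 5.70), from under 50 UMIs, and ran from 0.733 to 3.62 over 10 other settings. Stromal-like cells were at 3.26 and 3.24 CPM and myoid-like cells at 3.77 and 4.85 CPM, with overlapping intervals between these 2 classes. Levels in vKO were higher in every germ class: 118 CPM in Gfra1/Ret spermatogonia from 918 UMIs, a ratio of 2.81 (2.55 to 3.11), and 107 against 16.5 CPM in the other germ-like cells, a ratio of 6.48 (4.47 to 9.46). In the 7 vKO Kit/Stra8 cells it was 32.4 CPM from 10 UMIs, a ratio of 5.87 (2.69 to 11.5). Over 15 other settings the Gfra1/Ret ratio ran from 1.94 to 3.62, and 6 of these values lay outside its counting interval. Thinned to 10000 UMIs, 25.7% of control and 57.7% of vKO Gfra1/Ret spermatogonia held a *Pmaip1* UMI, and Sertoli-like cells 0.105% and 0.374%. The Gfra1/Ret class itself differed between the libraries. The summed markers *Gfra1*, *Ret*, *Etv5*, *Id4* and *Lhx1* were at 579 CPM in control and 832 CPM in vKO. The part of this difference in the *Pmaip1* ratio was not tested.

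The other BH3-only genes stood close to equal between the libraries in the reported Gfra1/Ret spermatogonia, though not under every setting. *Bcl2l11* was at 36.0 CPM in control and 34.8 CPM in vKO, with a ratio of 0.966 (0.834 to 1.12, counting error only). Over 15 other settings its ratio ran from 0.656 to 1.01. *Bid* was at 24.6 and 26.4 CPM, ratio 1.07 (0.904 to 1.27), and ran from 0.541 to 1.27 over 15 other settings. Germ classes held more *Bid* than somatic ones. In control, Kit/Stra8 spermatogonia had 34.6 CPM, Sertoli-like cells 12.01, stromal-like cells 2.12 and myoid-like cells 1.43 CPM. *Bid* overlaps *Bcl2l13* on the opposite strand and the strand setting of the counting is not given in the sources used here, so reads of both genes could mix. *Bcl2l11* was at 57.9 and 59.4 CPM in Sertoli-like cells, above the Gfra1/Ret spermatogonia, and at 43.5 CPM in control and 71.2 CPM in vKO Kit/Stra8 spermatogonia, the latter from 22 UMIs.

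**Figure D1:**
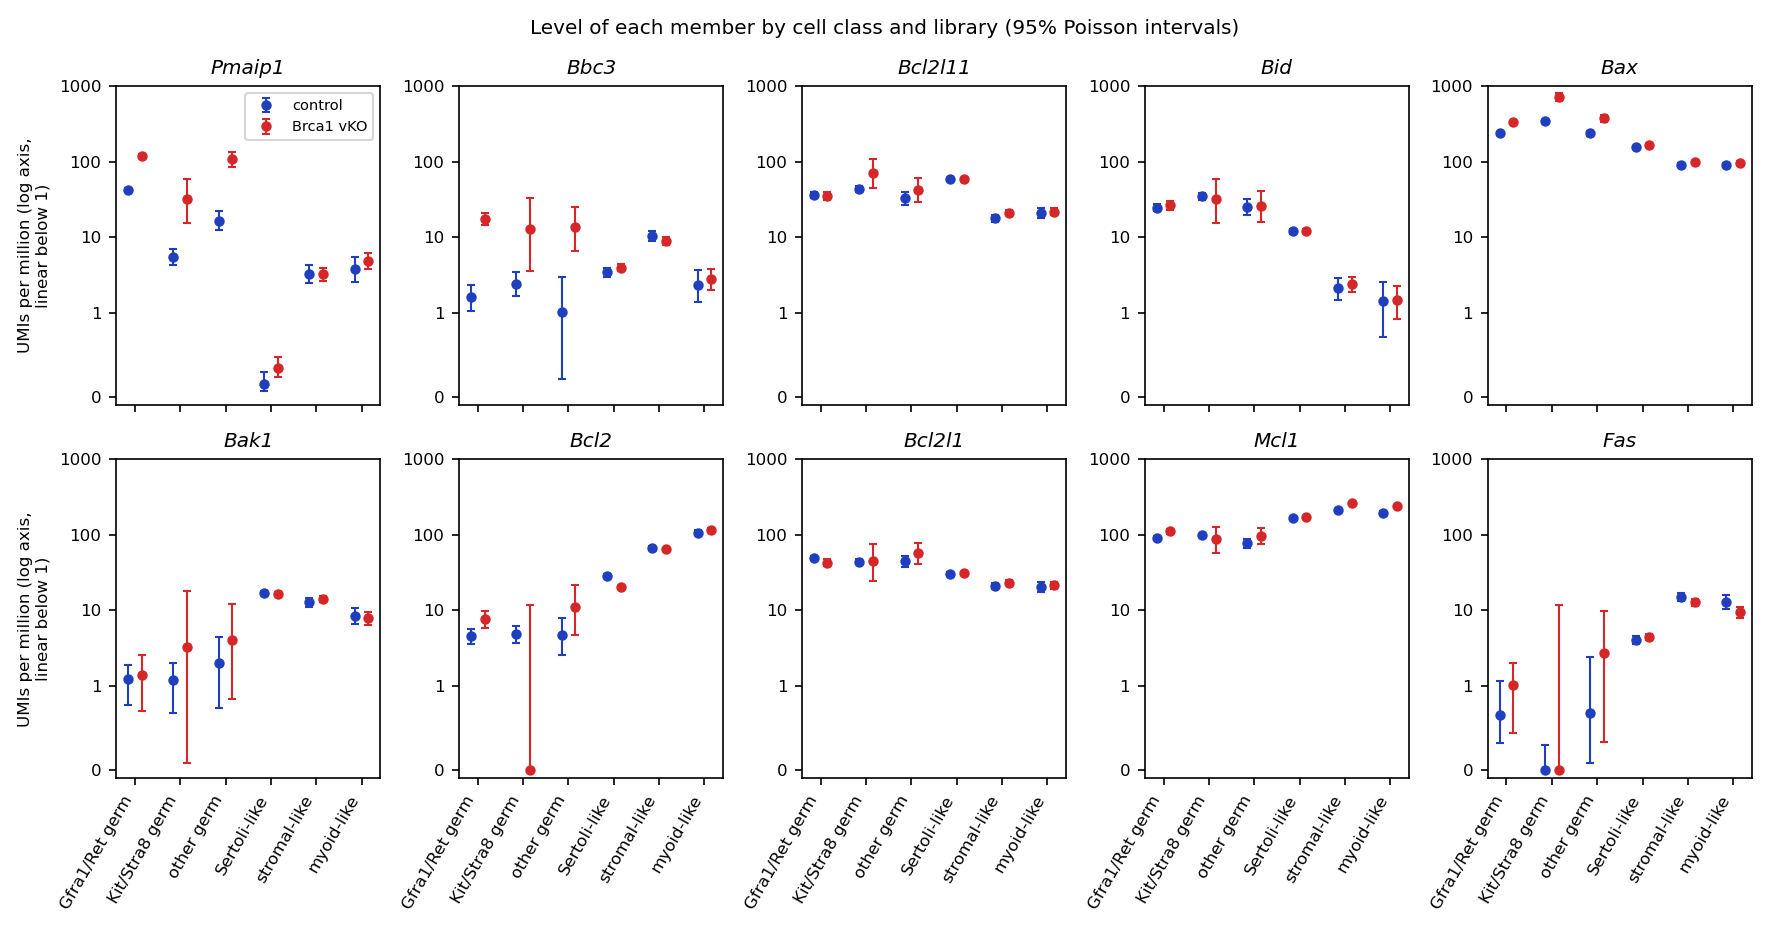
Level of each of the 10 genes, in CPM on a log axis that is linear below 1, for 6 cell classes in control (blue) and Brca1 vKO (red); points are sums over the cells of 1 library and bars are 95% Poisson intervals. Pmaip1 and Bbc3 separate the libraries in the germ classes and not in stromal-like cells, and Bak1 and Fas lie lower in germ than in somatic classes in control.

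Of the effectors, *Bax* supplied most of the pro-apoptotic UMIs in every class and *Bak1* almost none in germ cells. *Bax* was at 237 CPM (230 to 245) in control and 331 CPM (318 to 344) in vKO Gfra1/Ret spermatogonia, a ratio of 1.39 (1.33 to 1.47). In Kit/Stra8 spermatogonia it was at 340 and 715 CPM, ratio 2.10 (1.83 to 2.41), the vKO value from 221 UMIs in 7 cells. Over 12 other settings that ratio ran from 1.43 to 2.11. In the other germ-like cells *Bax* was at 238 and 372 CPM, ratio 1.56 (1.35 to 1.80). Control Kit/Stra8 spermatogonia held 1.43 times (1.37 to 1.497) the *Bax* level of control Gfra1/Ret spermatogonia. Among the somatic classes *Bax* was at 155 and 166 CPM in Sertoli-like cells, 90.2 and 99.5 CPM in stromal-like cells, and 90.1 and 95.8 CPM in myoid-like cells, with ratios of 1.07, 1.10 and 1.06.

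*Bak1*, the other pore gene, was counted at 21 and 11 UMIs in Gfra1/Ret spermatogonia, or 1.24 and 1.42 CPM, too few for a ratio. In Sertoli-like cells it was at 17.0 and 16.7 CPM and in stromal-like cells at 12.8 and 14.3 CPM. *Bak1* overlaps *Ggnbp1* on the other strand, so the same limit on strand applies as for *Bid*.

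Of the protective genes, *Mcl1* had the highest level, *Bcl2l1* was higher in germ than in somatic classes, and *Bcl2* was mainly somatic. *Mcl1* stood at 91.0 CPM (86.5 to 95.6) in control and 111 CPM (104 to 119) in vKO Gfra1/Ret spermatogonia, ratio 1.22 (1.12 to 1.33). Ratios of the same size were measured in stromal-like cells, 212 and 261 CPM (1.23, 1.18 to 1.28), and in myoid-like cells, 196 and 241 CPM (1.23, 1.16 to 1.31). Sertoli-like cells had 166 and 173 CPM.

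*Bcl2l1* was lower in vKO Gfra1/Ret spermatogonia, 43.1 against 49.4 CPM, ratio 0.872 (0.766 to 0.991), although the ratio was 1.04 (0.572 to 1.77) in cells without marker UMIs of other types and 0.650 (0.482 to 0.867) with cells thinned to 10000 UMIs. It was nearly equal in Sertoli-like cells, 30.8 against 30.7 CPM. *Bcl2* was at 4.56 CPM in control and 7.73 CPM in vKO Gfra1/Ret spermatogonia from 77 and 60 UMIs, ratio 1.69 (1.19 to 2.41), with at most 7 of those UMIs in any 1 cell. The *Bcl2* ratio was 1.40 (0.861 to 2.23) without the cells that a doublet caller marked and 0.959 (0.418 to 2.08) when cells were thinned to 10000 UMIs. The interval included 1 in both, and the direction turned in the second. In somatic classes *Bcl2* was at 28.8 and 20.5 CPM in Sertoli-like cells, ratio 0.712 (0.666 to 0.761), at 67.6 and 65.1 CPM in stromal-like cells, and at 107 and 116 CPM in myoid-like cells. It was listed with 60 UMIs in control Kit/Stra8 spermatogonia and 0 in the 7 vKO cells, where 0 of 309034 UMIs allows up to 11.9 CPM by the exact interval.

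*Fas*, the death receptor gene, was near the limit of detection in germ cells, with 11 and 8 UMIs in Gfra1/Ret spermatogonia and 0 in the Kit/Stra8 spermatogonia of both libraries, which allows up to 0.299 CPM in control by the exact interval. Stromal-like cells had 15.1 and 12.8 CPM, myoid-like cells 13.0 and 9.50 CPM, with a myoid ratio of 0.730 (0.561 to 0.953), and Sertoli-like cells 4.06 and 4.44 CPM.

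Counting as called a ratio of at least 1.5 or at most its inverse among genes with at least 50 UMIs over both libraries, 8 of the 10 members had enough UMIs in Gfra1/Ret spermatogonia, and 3 (*Pmaip1*, *Bbc3* and *Bcl2*) were higher and 0 lower. Over all genes 10.2% were higher and 10.7% lower by this rule. The median log2 ratio of the 8 members was 0.38, against -0.00 over all 13470 genes with enough UMIs. In the whole germ-like class 3 of 9 members were higher, with 9.36% of all genes higher and 14.7% lower. In Kit/Stra8 spermatogonia 3 of 7 (*Pmaip1*, *Bax* and *Bcl2l11*) were higher, beside 11% of all genes, on 7 vKO cells. *Bcl2* counts as lower there, beside 24.9% of all genes, but only through 0 UMIs in vKO, and its interval (0 to 2.53) includes 1. None of the members with enough UMIs passed the fold in Sertoli-like, stromal-like or myoid-like cells, 9, 10 and 9 genes, where 3.67%, 2.32% and 3.68% of all genes were higher and 3.17%, 2.45% and 2.26% lower.

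**Figure D2:**
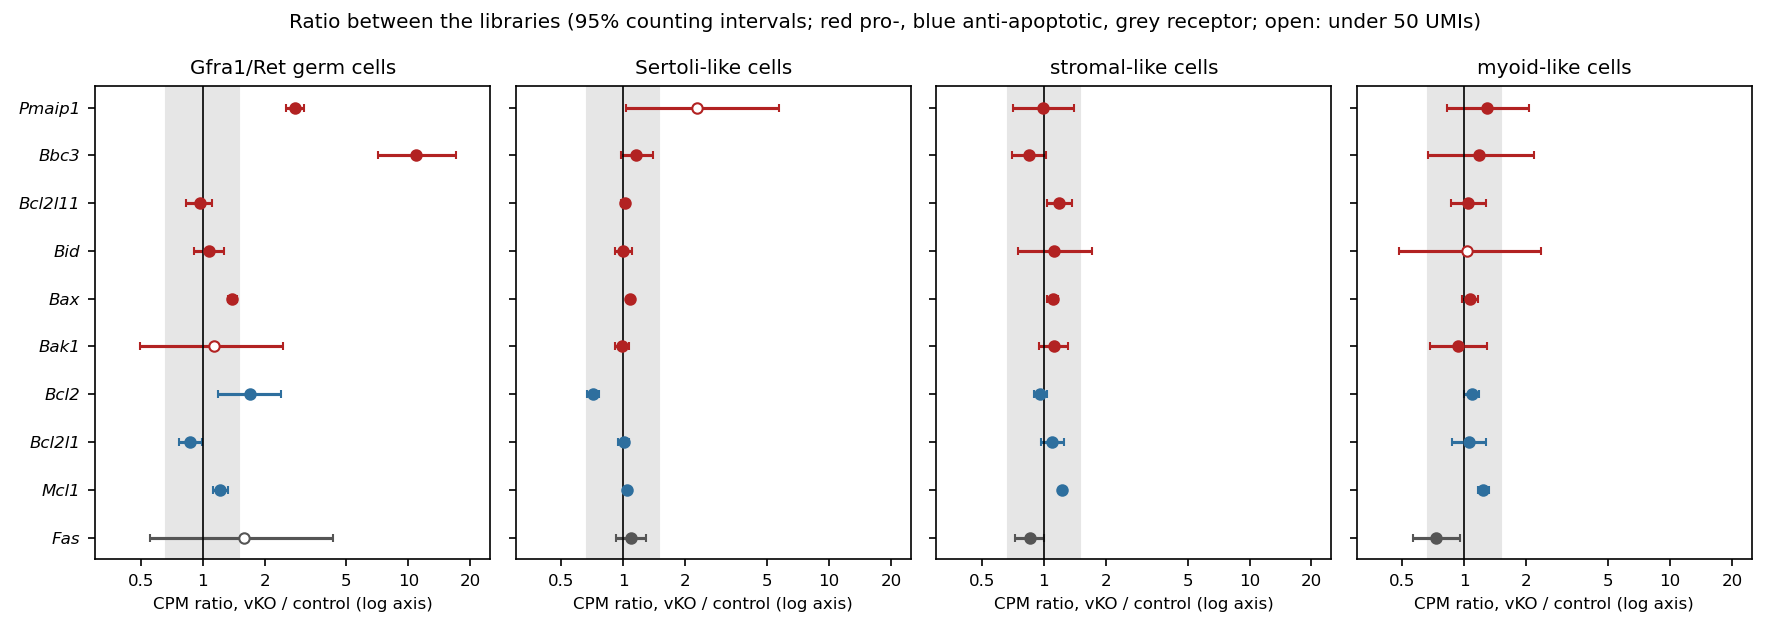
Ratio of CPM, vKO over control, for the 10 genes on a log axis in Gfra1/Ret spermatogonia and 3 somatic classes; bars are 95% counting intervals, open points have under 50 UMIs over both libraries, and the grey band is the range within 1.5-fold. Of the filled points, Bbc3 at 10.9, Pmaip1 at 2.81 and the protective gene Bcl2 at 1.69 lie outside the band in spermatogonia, and those of the somatic classes lie inside it. The open points outside it are Fas in spermatogonia (1.58) and Pmaip1 in Sertoli-like cells (2.28).

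Set against each other, the 6 pro-apoptotic and 3 protective members stood further to the pro-apoptotic side in vKO germ cells. The pro-apoptotic members held 70.3% of the pro and protective UMIs (69.3 to 71.3) in control Gfra1/Ret spermatogonia and 76.6% (75.4 to 77.7) in vKO. As a ratio of sums this was 2.37 in control and 3.27 in vKO, 1.38 times higher in vKO (1.28 to 1.498). In all germ-like cells it was 2.58 and 3.38, vKO over control 1.31 (1.22 to 1.40), and in Kit/Stra8 spermatogonia 2.90 and 6.54, vKO over control 2.26 (1.61 to 3.23). The vKO Kit/Stra8 value rests on 7 cells with 41 protective UMIs, and the 2.26 ran from 1.39 to 4.18 over 13 other settings. The part of the mix of classes in the value for all germ-like cells was not tested. The summed pro-apoptotic level in Gfra1/Ret spermatogonia was 343 CPM in control and 529 CPM in vKO, and the protective level 145 and 162 CPM. *Pmaip1* made 12.3% of the pro-apoptotic sum in control and 22.4% in vKO, *Bbc3* 0.467% and 3.29%, and *Bax* 69.2% and 62.5%. No setting left *Pmaip1* and *Bbc3*, the members with the largest ratios there, out of the sum. The list was selected on earlier values of these sums, so the shift is a description and was not tested.

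In the somatic classes the ratio of sums differed less between the libraries. Sertoli-like cells had pro to protective ratios of 1.09 and 1.15 (vKO over control 1.06, 1.03 to 1.09), stromal-like cells 0.454 and 0.428 (0.942, 0.887 to 0.9998), and myoid-like cells 0.393 and 0.355 (0.904, 0.825 to 0.990). Within the stromal-like class a cycling cluster had 36.8% of control and 44.6% of vKO cells marked as doublets, and without marked cells the stromal-like value was 0.930. The order of classes, germ above Sertoli-like above stromal-like and myoid-like, held in both libraries.

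**Figure D3:**
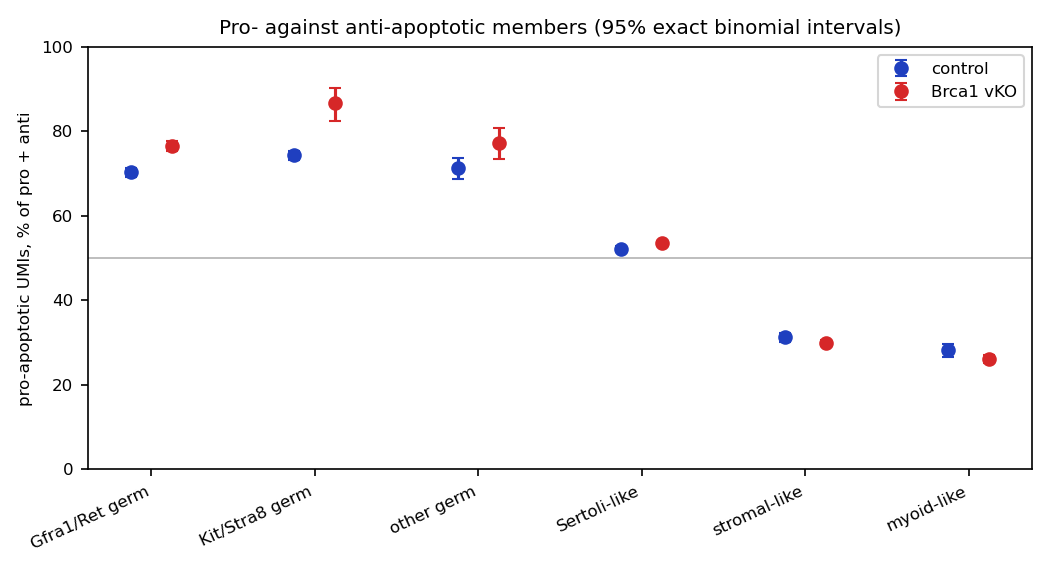
Pro-apoptotic UMIs as a percentage of pro-apoptotic plus protective UMIs for 6 classes in control (blue) and Brca1 vKO (red); bars are 95% exact binomial intervals. Gfra1/Ret spermatogonia sit at 70.3% in control and 76.6% in vKO, and stromal-like and myoid-like cells sit below 50% in both.

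Other genes of the death pathway, in lists chosen with earlier results of these libraries known, were counted in Gfra1/Ret spermatogonia by the same rule. Over all genes 10.2% were higher and 10.7% lower there, and no list count was tested against these shares. Of 9 other BCL2 family genes with enough UMIs, 2 were higher and 1 lower. *Bcl2l2*, which encodes the protective BCL-w, was at 4.39 and 9.93 CPM (ratio 2.26) and *Bok*, an effector relative, at 14.9 and 23.8 CPM (1.60), while *Bnip3*, a mitochondrial BH3 gene, was at 44.0 and 24.0 CPM (0.545). In all germ-like cells *Bnip3* was at 73.7 and 26.5 CPM (0.359) and *Bik*, a BH3-only gene, at 49.4 and 77.7 CPM (1.57). In Kit/Stra8 spermatogonia, 234 control and 7 vKO cells, *Bnip3* was at 118 and 97.1 CPM (0.823, 0.553 to 1.18). In the other germ-like cells it was at 58.8 and 23.4 CPM (0.397). Within Gfra1/Ret spermatogonia *Bik* was at 64.7 and 74.6 CPM (1.15, 1.04 to 1.28), short of the fold. *Bik* was at 26.7 and 84.1 CPM in Kit/Stra8 spermatogonia (3.15, 2.03 to 4.71). In the other germ-like cells it was at 56.7 and 107 CPM (1.89, 1.43 to 2.49). The part of the mix of classes in the pooled *Bnip3* and *Bik* ratios was not tested. Of 15 genes of the apoptosome and caspases, 1 was higher and 2 lower. *Apaf1*, the scaffold of the apoptosome, was at 18.1 and 32.1 CPM (1.77), *Endog* at 41.7 and 27.3 CPM (0.656), and *Dffa* at 7.17 and 4.51 CPM (0.629), and *Casp9* had a ratio of 0.940.

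Among 6 genes of the death receptor arm, *Tnfrsf10b*, the receptor gene for TRAIL, was higher at 5.81 and 15.1 CPM (2.60) and none was lower. Among 10 inhibitors of apoptosis, *Bag3* was higher at 7.23 and 13.4 CPM (1.85), and none was lower. Beside these counts and the next, 10.2% of all genes were higher and 10.7% lower in these spermatogonia. Of 19 genes with enough UMIs in the list of p53 and its targets, 13 were higher and 0 lower, with a median log2 ratio of 0.98. *Cdkn1a*, the p21 gene, was at 13.2 and 130 CPM (9.83), *Eda2r* at 2.73 and 24.8 CPM (9.08) and *Ccng1* at 42.3 and 221 CPM (5.23). *Trp53* had a ratio of 1.31 and *Mdm2* of 1.28. In Sertoli-like cells 0 of 20 genes of the p53 list were higher and 1 lower, in stromal-like cells 1 and 0 of 20, and in myoid-like cells 1 and 1 of 18. Of all genes 3.67%, 2.32% and 3.68% were higher and 3.17%, 2.45% and 2.26% lower in these 3 classes.

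**Figure D4:**
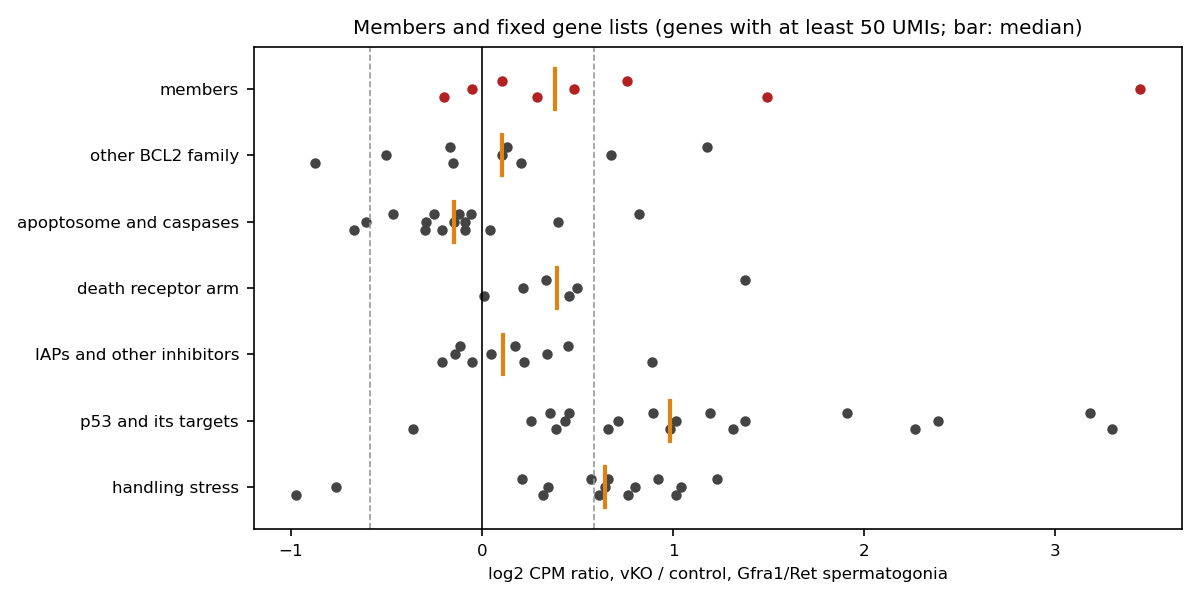
Log2 CPM ratio, vKO over control, in Gfra1/Ret spermatogonia for the members (red) and for each gene list (grey), 1 point a gene with at least 50 UMIs; orange bars are medians and dashed lines mark 1.5-fold. The members have a median of 0.38, the p53 list 0.98 and the apoptosome and caspase list -0.15.

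Several measures moved with the vKO germ cells. Summed handling stress genes, the genes that dissociation turns on, were at 1335 CPM in control and 1997 CPM in vKO Gfra1/Ret spermatogonia. Of these 15 genes 9 were higher and 2 lower, beside 10.2% and 10.7% of all genes. Neutrophil markers were at 1.60 and 244 CPM (3 of 5 detected in control, 5 of 5 in vKO), Sertoli markers at 256 and 353 CPM, stromal markers at 143 and 283 CPM, and red blood cell markers at 285 and 41.0 CPM. Summed markers of the Gfra1/Ret sub-type were at 579 and 832 CPM, and those of the Kit/Stra8 sub-type at 66.7 and 93.5 CPM. A doublet caller marked 6.02% and 13.2% of the cells. Without those cells the ratios were 11.5 for *Bbc3* and 2.87 for *Pmaip1*. In cells at or below the control median of handling stress (175 and 23 cells) they were 14.6 (6.39 to 35.4) and 2.25 (1.82 to 2.76), and in cells without marker UMIs of other types (86 and 10 cells) 13.4 (3.86 to 48.3) and 3.62 (2.59 to 4.98). These last 2 selections were added after seeing the data. The part of these measures in the other results was not tested.

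**Figure D5:**
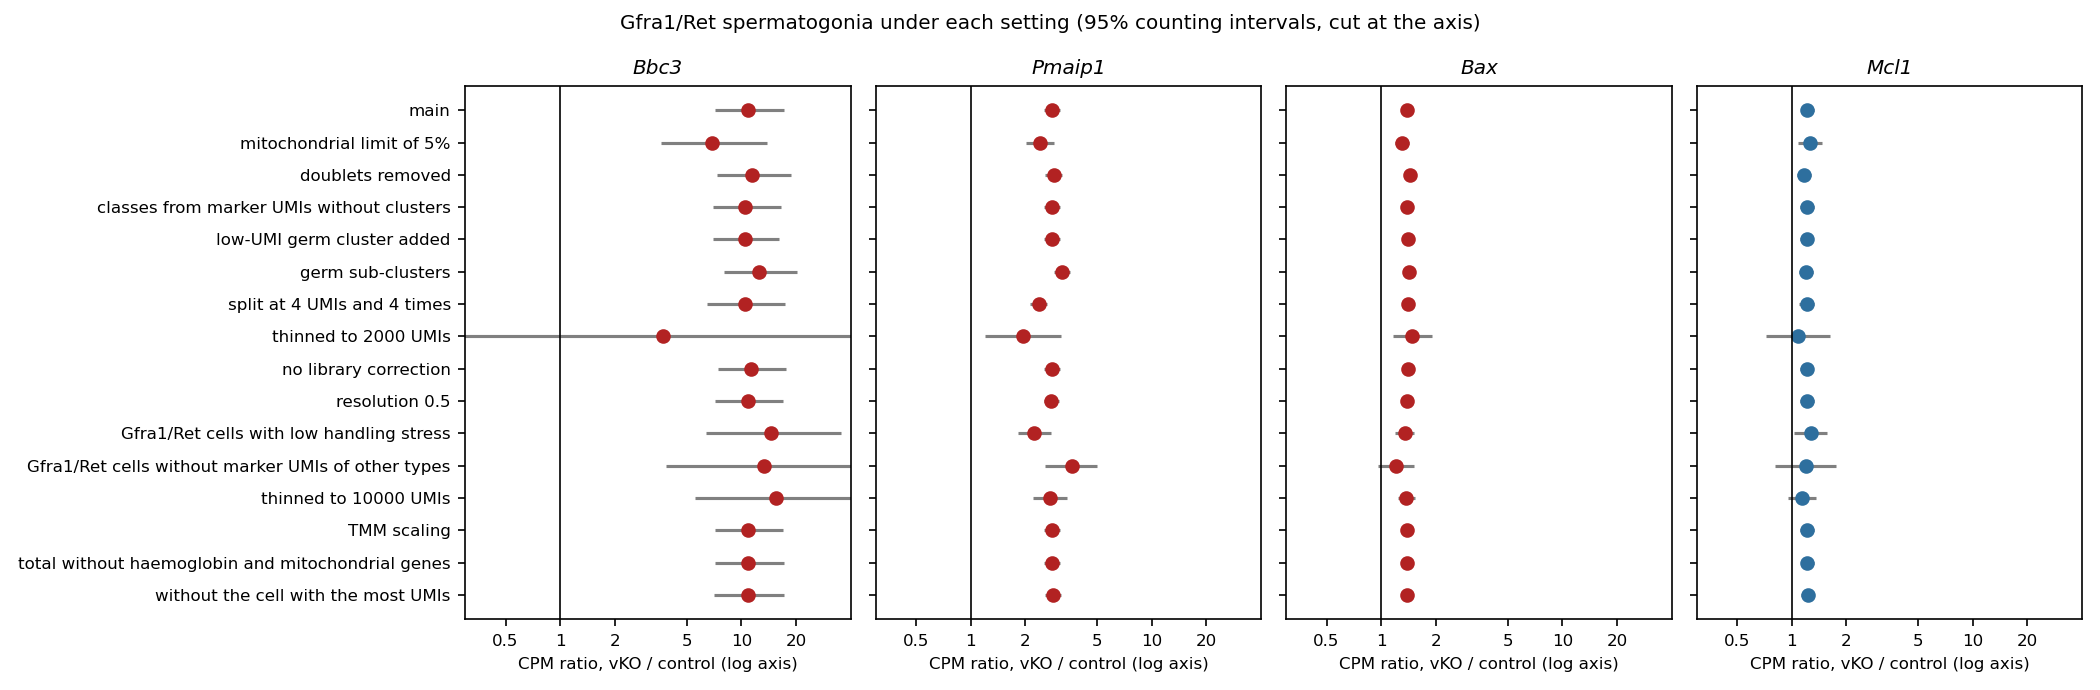
CPM ratio, vKO over control, of 4 members in Gfra1/Ret spermatogonia under each setting of the cell selection, on a log axis; bars are 95% counting intervals, cut at the axis limits. Bbc3 runs from 3.67 to 15.6 and Pmaip1 from 1.94 to 3.62, all above 1.5, although the Bbc3 interval at 2000 UMIs a cell includes 1, whereas Bax runs from 1.21 to 1.49.

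By the highest Pearson correlation of log2(CPM + 10) over the 12 sums of 6 classes in 2 libraries, among 10405 genes, the genes most like each member were as follows. These are descriptions, since the sums share libraries, depth and cells. *Pmaip1* was nearest to *Pomp* (r = 0.988) and *2900026A02Rik* (0.961), *Bbc3* to *Fam111a* and *Paics* (both 0.849), *Bcl2l11* to *Tef* (0.977) and *Exoc2* (0.972), and *Gsr* (0.995) was among the genes nearest to *Bid*. *Bax* was nearest to *Tefm* (0.987) and *Cactin* (0.986), and *Bak1* to *Smim19* (0.978) and *Prr13* (0.975). *Bcl2* was nearest to *Klhdc8b* (0.990) and *Tpm4* (0.989), *Bcl2l1* to *Kdm5a* and *Gon4l* (both 0.987), *Mcl1* to *Ech1* (0.988) and *Cnpy2* (0.987), and *Fas* to *Gpx7* (0.984) and *Pdpn* (0.979). *Bbc3* had the lowest best match of the 10, and also the fewest UMIs of them over these sums. Its 1312 UMIs lay under the 2000 asked of the genes compared.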

How the data were processed

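Single-cell RNA libraries of PD7 testes, 1 control and 1 *Brca1* vKO, were used as deposited. The authors deposited counts: whole UMIs per gene and barcode, mapped to mm10 with Cell Ranger 6.0.2 (the submitters' notes also name R 4.2.3 and Seurat 4.3.0.1). Genotype came from the labels. The members and gene lists were chosen with earlier results of these data known. Cells with fewer than 750 genes or over 10% mitochondrial UMIs were removed, and 2000 variable genes, 20 components, 20 neighbours and a leiden resolution of 0.25 gave the clusters, after a Harmony-type correction for library. Clusters took a class from fixed markers (score of at least 0.75, at least 3 markers detected). In addition, no other type could have more markers among the 10 genes of highest fold than the class itself. A cluster of low depth also needed a marker of its own there. The cluster of few UMIs with germ markers had 2 germ markers and 4 of another type there, so it was left unnamed. In germ-like cells the split needed 2 UMIs and 2 times the other pair. Doublets were marked by Scrublet and kept. The class names were rebuilt here and may differ from the study's. UMIs were summed per library and class. With 1 library a genotype there is no test and no p-value. Named genes were the 10 members and, per list, up to 3 genes past 1.5-fold farthest from 1 with at least 50 UMIs over both libraries. *Brca1* and the genes most like each member were also named. *Casp9*, *Trp53* and *Mdm2* were named outside this rule. No columns of other samples were used. Fold calls and intervals were run on simulated Poisson counts with set folds. These counts hold no spread between cells or animals, so the run cannot check the intervals against such spread. Tools were Python 3.11.15, scanpy 1.11.5, scipy 1.17.1, R 4.3.3 and edgeR 4.0.16 (TMM factors only). Results for some genes are not reported here.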

Additional observations from a re-analysis of the deposited data

Results flagged for a closer look

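A cluster of few UMIs per cell that carried germ markers and haemoglobin genes was left unnamed and out of the reported class values (409 control and 58 vKO cells, medians of 3685 and 3575.5 UMIs). In it *Pmaip1* was at 16.3 CPM in control and 175.797 CPM in vKO, a ratio of 10.8 (7.22 to 16.3) from 41 and 69 UMIs. *Bbc3* was at 2.79 and 22.93 CPM from 7 and 9 UMIs, and *Bax* at 375 and 552.868 CPM, ratio 1.48. Each was looked at again because the signal lay in cells outside the named classes. With these cells added to the germ-like class the ratios there were 4.68 for *Pmaip1*, 8.90 for *Bbc3* and 1.26 for *Bax*. Before that addition, Kit/Stra8 spermatogonia were 234 of 652 germ-like cells in control and 7 of 216 in vKO. Control *Pmaip1* was at 42.1 CPM in Gfra1/Ret and 5.51 CPM in Kit/Stra8 spermatogonia, and its ratio within Gfra1/Ret spermatogonia was 2.81. The values of the cluster alone were not split by sub-type. The part of the mix of classes in these ratios was not tested.

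The pro to protective ratio changed 1.38 times in Gfra1/Ret spermatogonia and in the opposite direction in stromal-like cells (0.941823 times) and myoid-like cells (0.903806 times). The stromal-like interval reaches 0.9998, and its value was 1.10 without *Mcl1*, so that opposite direction is lost there. *Bcl2* had a ratio of 1.69 in Gfra1/Ret spermatogonia and 0.711771 in Sertoli-like cells. These differences between classes were not tested, with 1 library on each side.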

How the results depend on the processing

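Of 736 alternative values of member ratios 644 stayed within the counting interval, 87 moved beyond it and 5 changed the direction of a ratio past 1.5-fold. Counting ratios within 1.5-fold too, 74 of the 736 lay on the other side of 1. Of 83 pro to protective values 58 stayed, 22 moved and 3 changed direction. The cause was not tested. With a mitochondrial limit of 5% the change in the pro to protective ratio was 1.19 in germ-like cells, 1.21 in Gfra1/Ret spermatogonia, 1.39 in Kit/Stra8 spermatogonia and 1.11 in Sertoli-like cells. Classes taken from marker UMIs without clusters gave 1.16 in germ-like, 0.985 in Sertoli-like and 0.915 in other germ-like cells, and germ sub-clusters gave 1.45 in Kit/Stra8 spermatogonia. Thinned to 2000 UMIs it was 1.41 in germ-like cells, 3.33 in Kit/Stra8 and 0.7499 in myoid-like cells, and thinned to 10000 UMIs, chosen after seeing the data, 1.60 in Gfra1/Ret spermatogonia. Without *Mcl1* it was 1.45 in germ-like cells, 1.64 in Gfra1/Ret, 1.22 in Sertoli-like and 1.10 in stromal-like cells, and without *Bax* 1.83, 1.68 and, in Sertoli-like cells, 1.02. Geometric means gave 1.52 in germ-like, 4.18 in Kit/Stra8 and 1.16 in Sertoli-like cells. *Bcl2* in Gfra1/Ret spermatogonia turned to 0.918 at 2000 UMIs, 0.959 at 10000 UMIs and 0 in low-stress cells, a selection also chosen after seeing the data. In the 7 vKO Kit/Stra8 cells, *Pmaip1* was 0 at 2000 UMIs and *Bcl2l11* 0.670 at the limit of 5%. TMM scaling shifted log2 ratios by -0.07 to 0.03. No paired analysis was possible because each genotype has 1 library and the labels carry no replicate numbers.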
